A study of Mus musculus with 4 samples.

Results

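RAB GTPases are small membrane-bound switches that give each membrane of the cell its identity. In the GTP-bound state a RAB recruits effectors such as motors, tethers and fusion proteins, exchange factors load the GTP, and GTPase-activating proteins end the signal. In neurons the family is known for steering synaptic vesicles, dendritic receptors, axonal endosomes and lysosomes. The genes described here are all rows of the deposited tables whose symbol is Rab followed by a number and at most 1 letter from a to d and 1 further digit. This rule gave 59 of 24421 genes and used no expression value. RAB-like genes, RAB effectors and antisense transcripts named after a RAB gene are not among the 59.

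The 4 RNA-seq libraries were made from mouse brain, each from 100 fluorescent cells picked by hand. Of these, 2 are labelled excitatory, from cells with αCaMKII, a kinase of forebrain glutamatergic neurons, and 2 are labelled inhibitory, from cells with vGAT, which fills synaptic vesicles with GABA. The mice were males of 3 to 5 months from an αCaMKII-Cre and a vGAT-IRES-Cre colony, both kept by crossing to wild-type C57Bl/6J animals, so Cre is driven by the αCaMKII promoter in one line and from the vGAT locus in the other. The labels name neither the fluorescent reporter nor the brain region, give no Noonan syndrome mutation for these samples, and do not give the number of animals behind each pair of libraries. The p-values therefore reflect only library-to-library spread, which may be technical.

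Each library had 12609 to 12798 genes above 0, and its depth, estimated from the steps between its lowest values, was 61900000 to 74300000 reads. A deposited value is read as log2(normalized reads + 1), an assumption that leaves folds and per-length levels of genes near the floor uncertain. Folds are taken on that scale, and every difference below is excitatory minus inhibitory on that scale unless said otherwise. Mbp, a myelin gene, was the highest gene of every library and had the same value of 21.33 in all 4, so a deposited difference equals a difference relative to Mbp. Over all 13619 tested genes the median deposited difference was 0.52. Median-of-ratios scaling, under which a typical gene is equal between libraries, brought it to -0.01, and differences on that scale are called scaled. Every library listed Slc32a1, which encodes vGAT, at 0. The log2 summed level of 13 GABAergic marker genes was 13.98 to 14.19 in the excitatory and 13.43 to 13.52 in the inhibitory libraries, and that of 10 glutamatergic genes 16.71 to 16.77 and 15.84 to 15.88, so neither set was higher in the inhibitory libraries. Of 9 microglia genes all 9 were above 0 in every library, with a log2 summed level of 15.43 to 15.53 in the excitatory and 16.48 to 16.79 in the inhibitory libraries. Of 8 leukocyte and blood genes 0 to 1 were above 0 in the excitatory libraries (log2 sum 0 to 2.31) and 4 to 5 in the inhibitory libraries (14.11 to 14.53), with Cd79a, S100a8 and S100a9 at 0 throughout. Of 7 endothelial and mural genes 3 were above 0 in the excitatory libraries (10.16 to 10.30) and 1 to 2 in the inhibitory libraries (1.83 to 3.25), with Cldn5, Kdr and Cdh5 at 0. The summed levels of the 9 astrocyte genes were 20.97 to 20.99 and 20.19 to 20.28, and those of the 8 oligodendrocyte genes 21.48 to 21.51 and 21.39. The part of these cells in the differences of RAB genes was not tested, and in pooled cells fewer cells of a type cannot be told apart from less RNA per cell.

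Most RAB genes that were detected had values of at least 9 under both labels. Of the 59, 10 were listed at 0 in all 4 libraries (16.9%, against 39.2% of all genes), 2 more (Rab37 and Rab38) stayed below a value of 1 in at least 3 libraries and were not tested, and 47 passed the filter. Of these 47, 29 had at least 9 in every library; the share of all genes at that value was not counted. The genes at 0 throughout were Rab17 and Rab25, known from epithelial cells, and Rab19, Rab20, Rab29, Rab33a, Rab34, Rab36, Rab42 and Rab44. Levels of different genes can be compared only per length, here normalized reads per kilobase of merged exon. On that scale Rab7, which drives the step from late endosome to lysosome, led the family with 37510 and 30400 in the excitatory and 19910 and 19030 in the inhibitory libraries. Rab7 alone held 40.0% and 37.2% of the summed RAB level in the excitatory libraries and 34.7% and 32.0% in the inhibitory ones, and ranked between 110 and 148 among 23335 genes with a length. Next came Rab2a of the early secretory pathway, with 8170 and 7481 in the excitatory and 5416 and 6441 in the inhibitory libraries, and Rab3a of synaptic vesicles, with 8269 and 7525 against 4616 and 4568. Their order differed between the labels, and with the longest transcript as length Rab3a was the higher one over the 4 libraries (mean 8933 against 6877).

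**Figure D1:**
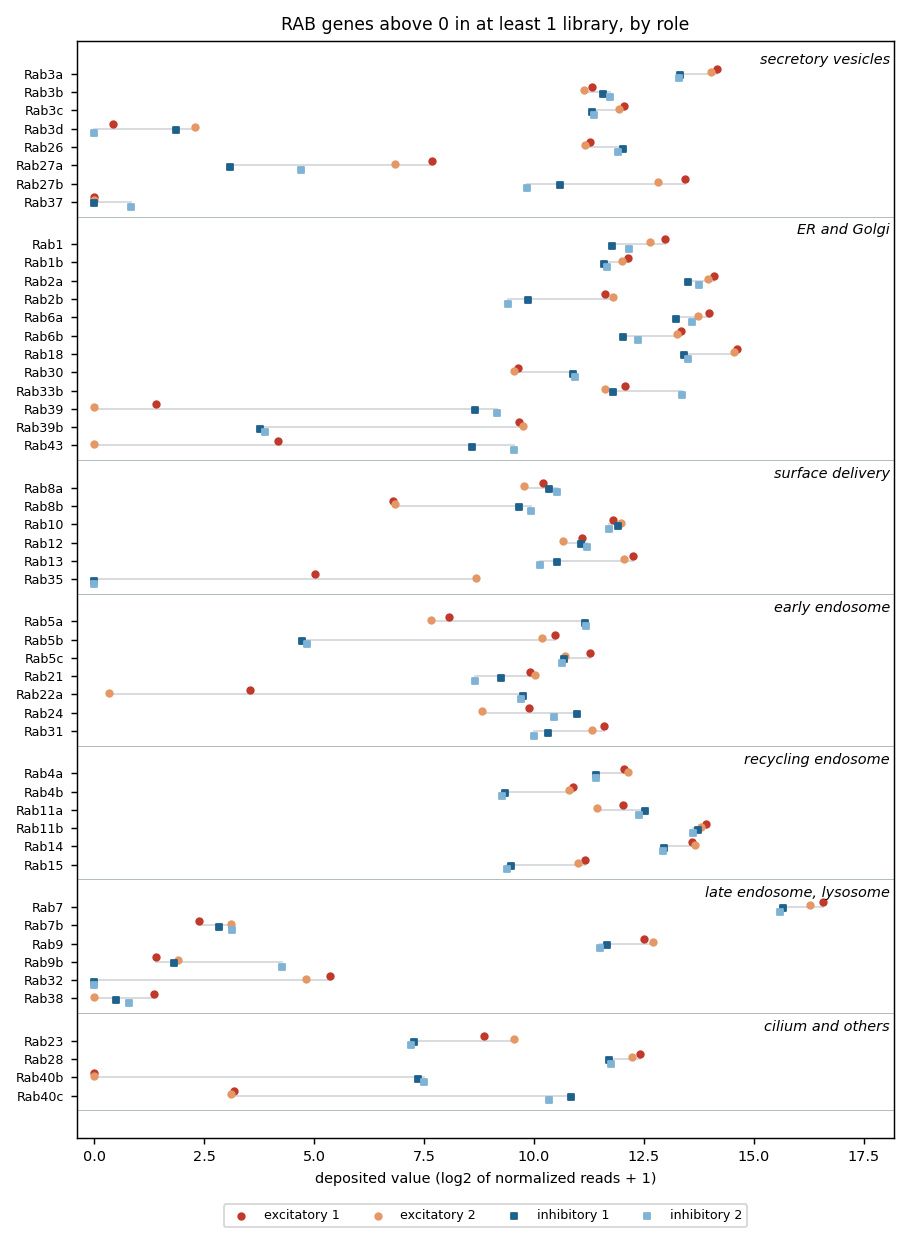
Deposited values (log2 of normalized reads + 1) of the RAB genes above 0 in at least 1 library, by role; circles are the 2 excitatory and squares the 2 inhibitory libraries, drawn slightly apart in height so that equal values show. Rab7 lies highest, between 15.60 and 16.58, while Rab39, Rab39b, Rab40b, Rab40c, Rab5b and Rab22a have wide gaps between the labels.

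The labels differed in many RAB genes, at about the rate of all genes. Across all tested genes the 2 excitatory libraries correlated at 0.984 and the 2 inhibitory ones at 0.98. Libraries of different labels correlated at only 0.525 to 0.532. The labels come from different mouse lines, so label cannot be told apart from line or from a batch that follows it. Of the 47 tested, 36 passed limma's moderated test in the deposited values at an adjusted p of 0.05, where 71.8% of all genes did. The excitatory libraries had the higher level for 25 of the 36 (45.0% of all genes) and the inhibitory libraries for 11 (26.8%). After scaling 29 passed (65.9% of all genes), 14 towards the excitatory (32.4%) and 15 towards the inhibitory side (33.5%). The excess of calls towards the excitatory side was thus gone after scaling, as it was over all genes. No RAB gene passed in opposite directions in the 2 scalings. In both scalings with the same direction 25 passed (59.3% of all genes), 14 towards the excitatory side (32.4%) and 11 towards the inhibitory side (26.8%). The values of the labels did not overlap for 41 tested members, 28 with the excitatory libraries above (54.6% of all genes) and 13 with the inhibitory ones above (31.8%). The median size of the deposited difference was 1.10 for the RAB genes and 1.62 for all tested genes. The count of 36 fell to 24 or 22 when excitatory replicate 1 or 2 was left out, and to 21 or 18 when inhibitory replicate 1 or 2 was. Rab32, Rab35 and Rab40b were at 0 in both libraries of 1 label and met the filter only through the other, so they had to differ. Rab22a, Rab39 and Rab43 reached 1 in only 1 excitatory library, so they too met the filter only through the inhibitory ones. All of these stand in the counts, as such genes do among all genes, but their values are given below without a test. Of the other genes past in both scalings, Rab5a, Rab5b, Rab8b, Rab18, Rab30, Rab39b and Rab40c also passed without each 1 of the 4 libraries in both scalings.

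**Figure D2:**
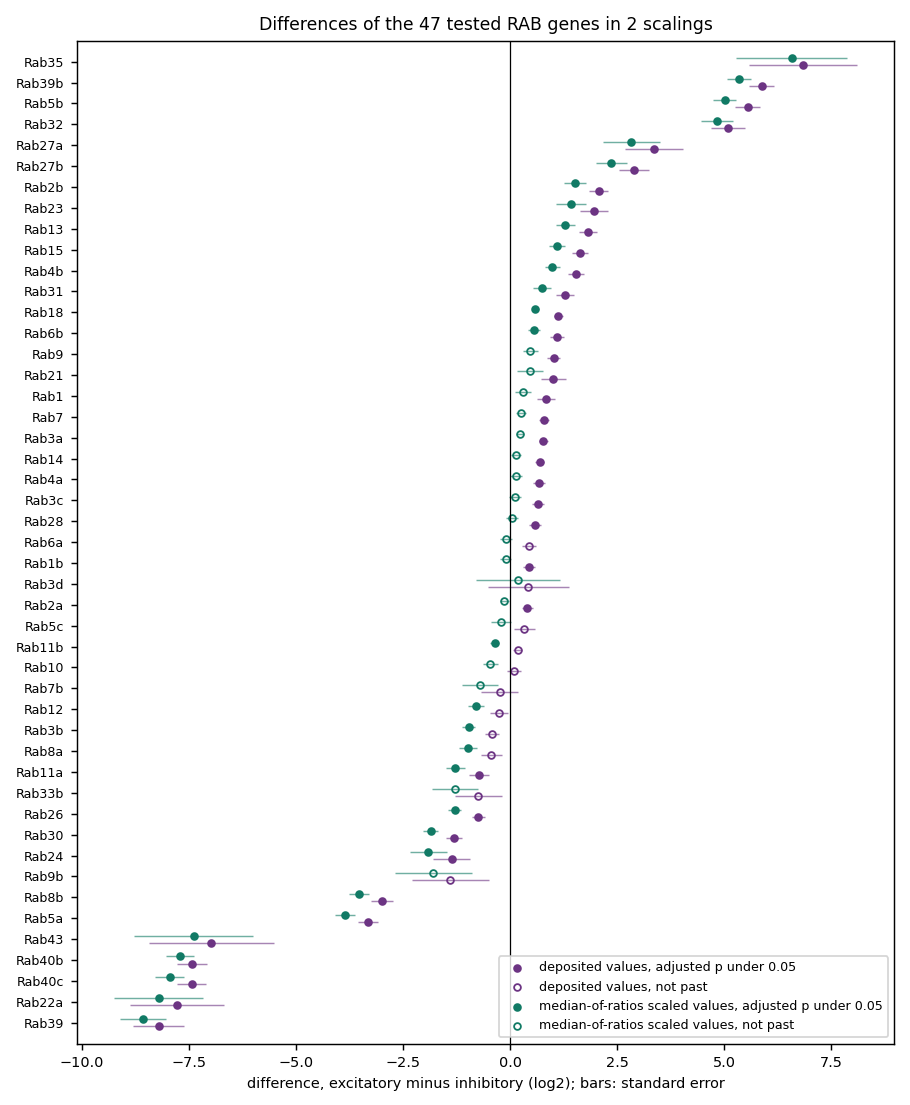
Difference between the labels (excitatory minus inhibitory, log2) of each of the 47 tested RAB genes in the deposited and in the median-of-ratios scaled values; bars are limma standard errors, filled points passed at an adjusted p of 0.05 and open points did not. Members such as Rab3a, Rab7 and Rab14 sit near the median of all genes and lose their call after scaling, and the genes at both ends keep it.

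Among the RABs of secretory vesicles, Rab27b and Rab27a stood out towards the excitatory libraries. Rab27b, which serves vesicle docking and release of dense granules, had 13.44 and 12.82 in the excitatory and 10.60 and 9.84 in the inhibitory libraries. Both excitatory values lay above both inhibitory ones, by 7.49-fold in the deposited values (log2 2.90, SE 0.35, limma, adjusted p = 0.00175) and by 5.14-fold after scaling (0.00500). Its call was lost in the deposited values without excitatory replicate 1, excitatory replicate 2 or inhibitory replicate 2, and in the scaled values without any 1 library. Rab27a, known from melanosomes and cytotoxic granules, had 7.68 and 6.84 against 3.10 and 4.71, a difference of 3.35 (SE 0.68, limma adjusted p = 0.00981) that did not pass without any 1 library (0.0525 to 0.173). Per length Rab27b held between 93.0% and 98.7% of the pair in every library.

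Of the Rab3 genes, whose proteins sit on synaptic vesicles and bind RIM and rabphilin at the release site, all but Rab3d had at least 9 in every library. Rab3a had 14.17 and 14.03 in the excitatory and 13.33 and 13.31 in the inhibitory libraries, 1.72-fold higher in the excitatory ones in the deposited values (difference 0.78, SE 0.10, limma adjusted p = 0.00225) and 1.18-fold after scaling, where it did not pass (0.0943). Rab3c, a close paralog, showed the same pattern with 12.05 and 11.94 against 11.32 and 11.37 (deposited difference 0.65, adjusted p = 0.0131, scaled 0.11, adjusted p = 0.509), and its deposited call was lost without inhibitory replicate 1 (0.0606) or 2 (0.0551). Rab3b had 11.31 and 11.14 against 11.58 and 11.73, so here the inhibitory libraries were the higher ones. Its deposited difference of -0.43 did not pass (limma adjusted p = 0.0682), and its scaled difference of -0.97 did (0.00438). Rab3d, the form of exocrine granules, was near the floor, with 0.42 and 2.29 against 1.85 and 0, and its labels overlapped. Rab26, which links synaptic vesicles to autophagy, was higher in the inhibitory libraries, with 11.28 and 11.17 against 12.03 and 11.92. The deposited difference of -0.75 (SE 0.15, limma adjusted p = 0.00957) and the scaled one of -1.29 (0.00204) both passed. The deposited call was lost without excitatory replicate 2 or inhibitory replicate 1, and the scaled call without excitatory replicate 2. Rab26 shares 9.4% of its exon bases with Traf7, whose inhibitory values were 10.28 and 9.94 and whose excitatory values were both 0; the part of Traf7 reads in the Rab26 value was not tested.

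RABs of the endoplasmic reticulum and Golgi differed in both directions and by very different amounts. In the deposited values 7 of 12 tested were higher in the excitatory libraries (45.0% of all genes) and 3 in the inhibitory ones (26.8%), and after scaling 4 (32.4%) and 3 (33.5%). Rab1 and Rab1b, which carry cargo from the endoplasmic reticulum to the Golgi, had 12.98, 12.63, 11.77 and 12.17 (Rab1) and 12.14, 11.99, 11.60 and 11.66 (Rab1b), in the order excitatory 1 and 2, inhibitory 1 and 2. Both passed in the deposited values (limma adjusted p = 0.0209 and 0.0445), neither did after scaling (0.225 and 0.536), and the deposited calls were lost without any 1 library (0.0929 to 0.198 for Rab1, 0.0595 to 0.124 for Rab1b). Rab2a, which acts at the same border, had 14.09, 13.96, 13.50 and 13.75 in that order. It passed only in the deposited values (0.0414, scaled 0.309) and was lost without any 1 library (0.0689 to 0.253). The difference of Rab1b and Rab2a was below 0 after scaling (-0.10 and -0.14). Rab6a, the Golgi RAB of retrograde transport, had 13.98, 13.73, 13.23 and 13.59 and did not pass in either scaling (0.0706 and 0.576), and its difference turned from 0.44 to -0.10 with scaling; it shares 19.0% of its exon bases with Mrpl48 on the other strand.

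Larger differences towards the excitatory libraries were seen for Rab18, Rab6b and Rab2b. Rab18, a RAB of the endoplasmic reticulum and lipid droplets whose loss causes Warburg Micro syndrome, had 14.63 and 14.55 in the excitatory and 13.41 and 13.50 in the inhibitory libraries. The difference was 2.19-fold (log2 1.13, SE 0.095, limma adjusted p = 5.53e-04) and 0.59 on the log2 scale after scaling (0.00390). Rab6b, the neuron-enriched paralog of Rab6a, had 13.35 and 13.26 against 12.03 and 12.37 (difference 1.10, adjusted p = 0.00324, scaled 0.56, 0.0220). Its deposited and its scaled call were both lost without excitatory replicate 1 or 2. Rab2b had 11.61 and 11.80 against 9.86 and 9.41, 4.19-fold (adjusted p = 0.00137) and 2.88-fold after scaling (0.00652). Its deposited call was lost without excitatory replicate 1 or 2, and its scaled call without these or inhibitory replicate 2. Of its exon bases 59.3% are shared with a transcript annotated on the other strand. In the other direction Rab30, a Golgi RAB, had 9.64 and 9.54 against 10.88 and 10.93, with the inhibitory libraries 2.49-fold above (difference -1.32, SE 0.18, limma adjusted p = 0.00270) and 3.63-fold after scaling (9.64e-04). Rab33b, which binds the autophagy protein ATG16L1, had 12.07 and 11.63 against 11.81 and 13.37. Its labels overlapped, its 2 inhibitory values lay 1.56 apart, and it did not pass (adjusted p = 0.278). Rab43, another Golgi RAB, had 4.18 and 0 against 8.59 and 9.55. Its difference of -6.98 is given without a test, because Rab43 met the filter only through the inhibitory libraries. Of its exon bases 75.4% are shared with an overlapping protein-coding transcript on the same strand.

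Rab39 and Rab39b, close paralogs linked to Golgi transport and autophagy, had opposite patterns. Rab39b, whose human counterpart is mutated in X-linked intellectual disability with parkinsonism, had 9.66 and 9.76 in the excitatory and 3.77 and 3.89 in the inhibitory libraries. Rab39 had 1.40 and 0 in the excitatory and 8.66 and 9.15 in the inhibitory libraries. Both genes had a wide gap between the labels. The gap within a label was small for Rab39b, while the 2 excitatory values of Rab39 lay 1.40 apart. The difference of Rab39b was 5.88 (SE 0.29, limma adjusted p = 1.31e-04, scaled 5.36). That of Rab39 was -8.21 (scaled -8.57), given without a test because Rab39 met the filter only through the inhibitory libraries. Rab39b passed without each 1 of the 4 libraries in both scalings. In the build GRCm38 Rab39 lies on chromosome 9 from 53684110 to 53706232 and Rab39b on chromosome X from 75572046 to 75578231. Of the exon bases of Rab39b, 18.6% are shared with an antisense transcript. The coding sequences of the pair were 72.7% identical, and the longest run of bases that their transcripts share was 24. The stretch around the codons of the GTP-binding loop (in capitals) is shown for both, since a read can be given to 1 of 2 paralogs only where they differ:

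Rab39: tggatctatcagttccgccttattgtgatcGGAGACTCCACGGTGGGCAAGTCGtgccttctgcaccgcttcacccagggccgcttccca

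Rab39b: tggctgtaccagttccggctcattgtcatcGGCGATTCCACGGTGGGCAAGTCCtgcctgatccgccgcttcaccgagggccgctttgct

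RABs that deliver membrane to the cell surface, several of them substrates of the Parkinson's disease kinase LRRK2, held a second pair of unequal paralogs. Rab8b, which moves cargo from the Golgi to the surface, had 6.80 and 6.84 in the excitatory and 9.67 and 9.95 in the inhibitory libraries, 7.93-fold higher in the inhibitory ones (difference -2.99, SE 0.26, limma adjusted p = 5.85e-04) and 11.5-fold after scaling (3.99e-04). Rab8a had 10.22 and 9.77 against 10.34 and 10.52. Its inhibitory values were only slightly above the excitatory ones, and it passed after scaling (-0.98, adjusted p = 0.0156, lost without excitatory replicate 2 or either inhibitory replicate at 0.0616 to 0.134) but not in the deposited values (-0.44, 0.163). Rab10, known for surface delivery of receptors and glucose transporters, had 11.80 and 11.98 against 11.91 and 11.70 and did not pass in either scaling (difference 0.08, adjusted p = 0.675, and scaled -0.46, 0.0851). Rab12 overlapped between the labels as well (11.10 and 10.67 against 11.07 and 11.21). It did not pass in the deposited values (0.334), but its scaled difference of -0.80 did (0.0210), except without excitatory replicate 2 (0.0601) or inhibitory replicate 1 (0.139) or 2 (0.154).

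Rab13, first described at epithelial junctions, was 3.55-fold higher in the excitatory libraries, with 12.26 and 12.05 against 10.52 and 10.13 (limma adjusted p = 0.00145, scaled 2.44-fold, 0.00693). Both the deposited and the scaled call were lost without excitatory replicate 1 or 2. Rab35, which recycles membrane from endosomes to the surface, was listed at 0 under the inhibitory label in both libraries, against 5.02 and 8.68 under the excitatory one. Its 2 excitatory values were far apart. Rab35 was the only RAB gene at 0 in both inhibitory libraries with at least 5 in both excitatory ones (3.09% of all genes), and Rab40b the only one with the reverse pattern (2.99%). For Rab8a and Rab8b the coding sequences were 77.4% identical with a longest shared run of 17 bases, shown around the same loop:

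Rab8a: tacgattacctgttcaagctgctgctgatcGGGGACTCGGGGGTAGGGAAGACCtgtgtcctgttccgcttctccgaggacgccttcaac

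Rab8b: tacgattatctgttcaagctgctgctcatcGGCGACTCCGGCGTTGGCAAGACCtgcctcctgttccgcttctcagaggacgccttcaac

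At the early endosome 2 of 3 paralogs were ordered in opposite ways. The 3 RAB5 proteins direct fusion of incoming endocytic vesicles with early endosomes. Rab5a had 8.07 and 7.66 in the excitatory and 11.17 and 11.19 in the inhibitory libraries. Rab5b had 10.49 and 10.19 in the excitatory and 4.73 and 4.85 in the inhibitory libraries. The groups did not overlap in either gene, and they were ordered in opposite ways. Rab5a was 9.96-fold higher in the inhibitory libraries (difference -3.32, SE 0.24, limma adjusted p = 3.64e-04, 14.5-fold after scaling), and Rab5b 46.8-fold higher in the excitatory ones (5.55, SE 0.28, adjusted p = 1.43e-04, 32.3-fold after scaling). Both calls were kept without each 1 of the 4 libraries in both scalings. Rab5c had 11.27 and 10.72 against 10.69 and 10.63 and did not pass in either scaling (difference 0.33, adjusted p = 0.272, and scaled -0.21, 0.469).

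Per length, Rab5a made up 3.34% and 3.52% of the RAB5 level in the excitatory libraries and 36.6% and 37.7% in the inhibitory ones. Rab5b made up 22.6% and 25.6% against 0.51% and 0.56%. Rab5c held the largest share everywhere, 74.1% and 70.9% against 62.9% and 61.7%. Such shares are taken within a library and do not depend on its scaling. The summed RAB5 level per length was 1516 and 1083 in the excitatory and 1193 and 1172 in the inhibitory libraries, so the sums overlapped although Rab5a and Rab5b did not. Rab5a, which shares 4.2% of its exon bases with Pp2d1 on the other strand, lies on chromosome 17 from 53479234 to 53507680 (GRCm38), Rab5b on chromosome 10 from 128677175 to 128696264 and Rab5c on chromosome 11 from 100715009 to 100738215. The coding sequences of Rab5a and Rab5b were 74.0% identical, and their transcripts shared a run of 35 bases at most. Around the codons of the loop (capitals) the 3 genes read as follows, to show how far they differ:

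Rab5a: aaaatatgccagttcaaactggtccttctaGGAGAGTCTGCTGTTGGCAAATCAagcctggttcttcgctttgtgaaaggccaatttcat

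Rab5b: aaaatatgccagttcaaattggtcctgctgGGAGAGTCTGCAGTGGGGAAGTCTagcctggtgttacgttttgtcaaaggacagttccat

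Rab5c: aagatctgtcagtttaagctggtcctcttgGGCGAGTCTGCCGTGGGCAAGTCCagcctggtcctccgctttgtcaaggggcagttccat

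Of the other early endosome genes, Rab22a and Rab31, relatives that act between endosomes and the Golgi, also went opposite ways. Rab22a had 3.55 and 0.35 in the excitatory and 9.75 and 9.70 in the inhibitory libraries. It was far higher in the inhibitory libraries (difference -7.78, scaled -8.21), given without a test because Rab22a met the filter only through those libraries. Its 2 excitatory values lay 3.20 apart. Rab31 had 11.60 and 11.32 against 10.32 and 10.01 and was 2.45-fold higher in the excitatory libraries (limma adjusted p = 0.00479, 1.68-fold after scaling, 0.0349). Both its deposited and its scaled call were lost without any 1 library. Rab21, which carries integrins, had 9.90 and 10.03 against 9.26 and 8.65 and passed only in the deposited values (0.0295, scaled 0.246); without excitatory replicate 1, excitatory replicate 2 or inhibitory replicate 2 it did not pass (0.187, 0.214 and 0.0826). Rab24, an atypical RAB of autophagy, had 9.89 and 8.82 against 10.99 and 10.46. The difference of -1.37 passed (adjusted p = 0.0414, scaled -1.91, 0.0172) but was lost without any 1 library (0.0803 to 0.321). On the other strand 62.4% of the exon bases of Rab24 are shared with Prelid1, which had 13.73 and 13.76 against 12.84 and 12.81, the opposite order.

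**Figure D3:**
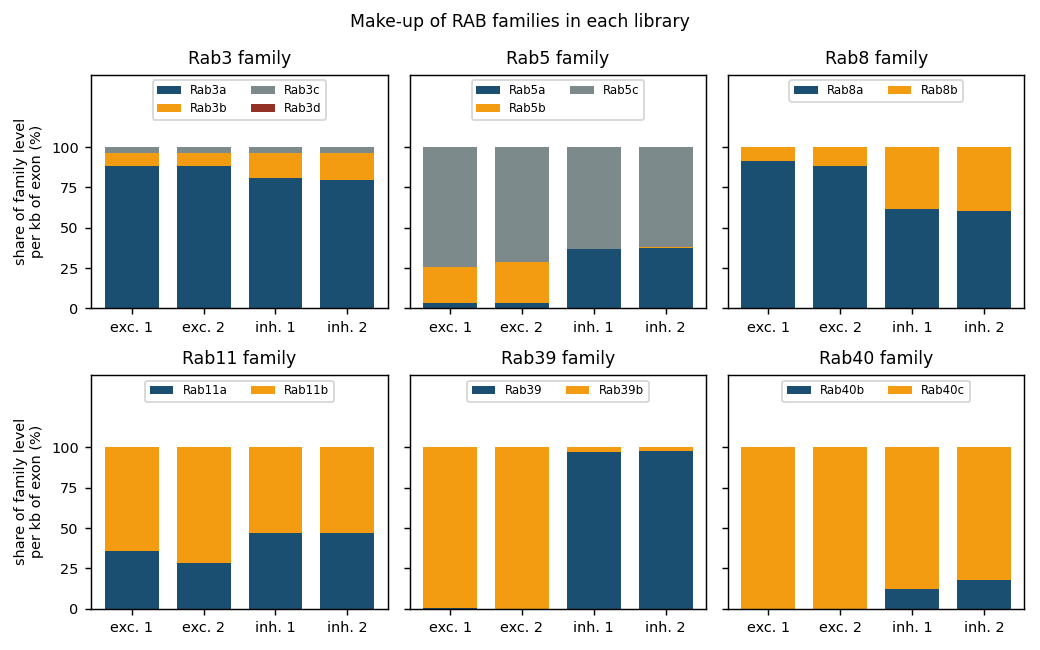
Share of each paralog in its family's summed level per kilobase of exon (percent) in each of the 4 libraries, for 6 RAB families; bars start at 0 and add to 100. Rab5b has a larger share than Rab5a, and Rab39b than Rab39, in the excitatory libraries and a smaller one in the inhibitory libraries, while Rab3a keeps at least 79.5% of the Rab3 family.

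Recycling endosome genes return internalised receptors to the membrane. Of 6 tested, 4 were higher in the excitatory libraries (45.0% of all genes) and 1 in the inhibitory ones (26.8%) in the deposited values, and after scaling 2 (32.4%) and 2 (33.5%). Rab11a, which drives slow recycling and delivers AMPA receptors to spines, had 12.02 and 11.45 in the excitatory and 12.54 and 12.40 in the inhibitory libraries. It was 1.66-fold higher in the inhibitory ones (difference -0.73, limma adjusted p = 0.0416, 2.42-fold after scaling, 0.00757). Both the deposited and the scaled call were lost without excitatory replicate 2 or inhibitory replicate 1 or 2. Rab11b, its brain-enriched paralog, had 13.91 and 13.80 against 13.73 and 13.62. Its difference of 0.18 did not pass in the deposited values (0.184), and the sign turned after scaling, to -0.36 (0.0454), a call lost without excitatory replicate 1 (0.191) or 2 (0.225) or inhibitory replicate 1 (0.0856). Within the pair and per length, Rab11a held 35.6% and 28.6% in the excitatory and 47.2% and 46.9% in the inhibitory libraries.

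Rab4a and Rab4b, which return receptors by the fast route, were both higher in the excitatory libraries in the deposited values. Rab4b had 10.88 and 10.80 against 9.34 and 9.28, 2.89-fold (limma adjusted p = 0.00178) and 1.98-fold after scaling (0.00868, lost without excitatory replicate 1 or 2 at 0.0623 and 0.0619); 1280 of its 1970 exon bases are shared with another protein-coding gene model on the same strand. Rab4a had 12.05 and 12.15 against 11.43 and 11.40 and did not pass after scaling (0.0102, scaled 0.437); without inhibitory replicate 2 its deposited p was 0.0511. Rab15, which inhibits endocytic traffic, was 3.11-fold higher in the excitatory libraries, with 11.15 and 10.998 against 9.49 and 9.39 (adjusted p = 0.00146, 2.14-fold after scaling, 0.00640), and its scaled call was lost without excitatory replicate 1 (0.0642) or 2 (0.0591). Rab14, of the path from Golgi to endosomes, had 13.59 and 13.66 against 12.95 and 12.93, a difference that passed in the deposited values (0.00352) and not after scaling (0.314).

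Among the RABs of late endosomes and lysosomes, the abundant members passed in the deposited values only. Rab7 had 16.58 and 16.28 in the excitatory and 15.67 and 15.60 in the inhibitory libraries. It was 1.74-fold higher in the excitatory ones in the deposited values (difference 0.80, SE 0.12, limma adjusted p = 0.00324) and 1.19-fold after scaling, where it did not pass (0.106); the deposited call was lost without inhibitory replicate 1 (0.101) or 2 (0.110). Rab9, which returns receptors from late endosomes to the Golgi, had 12.50 and 12.71 against 11.66 and 11.51 (adjusted p = 0.00349, scaled 0.0652), lost in the deposited values without inhibitory replicate 1 (0.0511) or 2 (0.0590). Their paralogs Rab7b (2.38 and 3.11 against 2.84 and 3.13) and Rab9b (1.41 and 1.90 against 1.83 and 4.27) were near the floor, overlapped and did not pass. Rab32 serves lysosome-related organelles. Its inhibitory values were both listed at 0, against 5.37 and 4.82 in the excitatory libraries, with no overlap. Its relative Rab38 did not exceed 1.36 in any library.

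Genes of the cilium and other RABs included the other large differences towards the inhibitory libraries. Rab40b and Rab40c carry a SOCS box and join ubiquitin ligase complexes. Rab40c had 3.19 and 3.11 in the excitatory and 10.84 and 10.34 in the inhibitory libraries, a difference of -7.44 (SE 0.33, limma adjusted p = 1.07e-04, scaled -7.95). Rab40b had 7.37 and 7.51 in the inhibitory libraries, while both excitatory values were 0. Unlike Rab5 and Rab39, both members thus lay in the same direction, and the summed level of the pair per length was 2.62 and 2.47 against 675 and 508. Rab23, a brake on hedgehog signalling, had 8.86 and 9.55 against 7.27 and 7.21, 3.90-fold higher in the excitatory libraries (adjusted p = 0.00539, 2.68-fold after scaling, 0.0215). The deposited call was lost without inhibitory replicate 1 or 2, and the scaled call without these or excitatory replicate 2. Rab28, known from cilia of photoreceptors, had 12.41 and 12.23 against 11.71 and 11.75 and passed only in the deposited values (0.0182, scaled 0.780); without excitatory replicate 1 (0.0552) or inhibitory replicate 1 (0.101) or 2 (0.0912) it did not.

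Paralogs differed along their coding sequences. Coding identity within the 23 pairs compared ran from 62.2% (Rab7 and Rab7b) to 78.4% (Rab6a and Rab6b), and no pair shared a run of more than 38 bases (Rab1 and Rab1b). The labels do not state the read length. The codons of the GTP-binding loop, found from the pattern of 1 glycine, 4 free positions, glycine, lysine and serine or threonine, were present in 55 of 57 coding sequences searched and absent as such from Rab40b and Rab40c. Of the 59 genes, 39 share no exon base with another annotated gene and 8 share more than 15%: Rab20, Rab24, Rab2b, Rab33b, Rab39b, Rab43, Rab4b and Rab6a. Values of these 8 are uncertain. The largest overlap of Rab43 and of Rab4b lies on the same strand, where strand cannot separate the reads. For the others it lies on the opposite strand, and the libraries are not described as stranded.

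The genes that act on RABs were compared for context. New RAB proteins are bound by an escort protein (Chm, Chml), receive lipid tails from a geranylgeranyl transferase (subunits Rabggta and Rabggtb), and are later lifted off membranes by dissociation inhibitors such as that encoded by Gdi2. All 7 such genes tested passed in the deposited values, 3 towards the excitatory and 4 towards the inhibitory libraries, and after scaling 1 and 4 (71.8% and 65.9% of all genes passed). Rabggtb had 7.07 and 8.55 in the excitatory and 14.13 and 14.12 in the inhibitory libraries, and Rabggta 2.39 and 2.63 against 10.22 and 10.57. Both subunits were thus far higher in the inhibitory libraries (Rabggtb -6.31, SE 0.51, limma adjusted p = 4.94e-04; Rabggta -7.88, SE 0.33, 9.64e-05), and Rabggtb lost its call without inhibitory replicate 1 (0.0586) or 2 (0.0579). The escort gene Chm followed the same order, with 1.40 and 1.90 against 7.34 and 7.14 (-5.58, adjusted p = 2.95e-04), while Chml did not exceed 0.27 in any library. Rabif, which stabilises RABs that hold no nucleotide, had 9.16 and 8.51 in the inhibitory libraries, while both excitatory values were 0. Rabif thus met the filter only through the inhibitory libraries and had to differ.

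**Figure D4:**
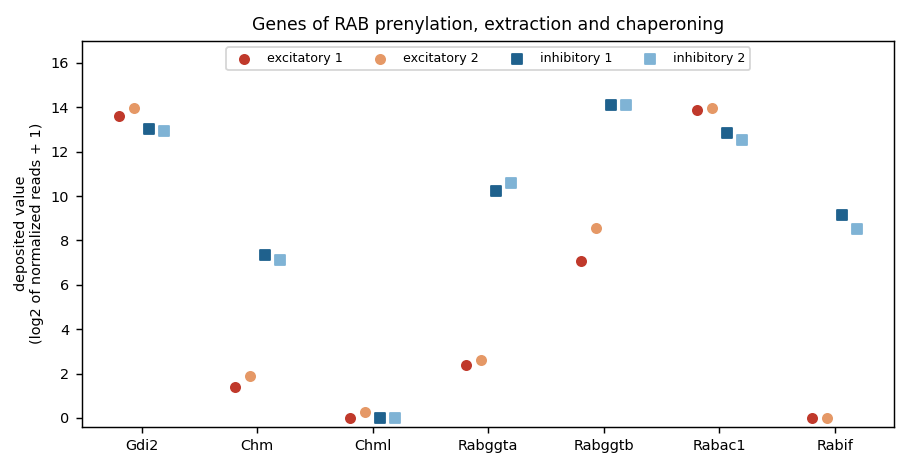
Deposited values (log2 of normalized reads + 1) in each library of 7 genes that lipidate, escort, extract or chaperone RAB proteins; circles are excitatory and squares inhibitory libraries. Chm, Rabggta, Rabggtb and Rabif are far higher in both inhibitory libraries, and Gdi2 lies between 12.94 and 13.97 in all 4.

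Exchange factors, GTPase-activating proteins and effectors differed in both directions. Of 30 tested exchange factors 12 passed in each direction (after scaling 9 towards the excitatory and 14 towards the inhibitory side). Of 30 GTPase-activating proteins 15 passed towards the excitatory and 10 towards the inhibitory side (scaled 13 and 11), and of 35 effectors 17 and 8 (scaled 16 and 10). Among all tested genes the shares in these directions were 45.0% and 26.8%, and after scaling 32.4% and 33.5%. Their median sizes of difference were 2.98, 2.81 and 2.02, against 1.62 for all tested genes. These counts and sizes include genes at 0 in both libraries of 1 label, which met the filter only through the other and had to differ. Over all partner lists 6 of 130 genes were at 0 in both inhibitory libraries with at least 5 in both excitatory ones (3.09% of all genes). The reverse pattern was seen for 8 of the 130 (2.99%). Rgp1 and Ric1, the 2 subunits of an exchange factor for RAB6, were listed at 0 under opposite labels. Rgp1 had 8.04 and 8.23 in the excitatory libraries and 0 in both inhibitory ones, and Ric1 had 9.72 and 9.5 in the inhibitory libraries and 0 in both excitatory ones. Rab3ip, which encodes the RAB8 exchange factor Rabin8, had 4.62 and 4.89 against 10.72 and 11.10 (limma adjusted p = 1.26e-04), the same order as Rab8b.

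Ankrd27, an exchange factor for RAB21 that also binds RAB32, had 9.89 and 9.72 in the excitatory libraries and 0 in both inhibitory ones, and Lrrk2 8.65 in both excitatory and 0 in both inhibitory libraries. Among the GTPase-activating proteins, Tbc1d14, Tbc1d1 and Evi5l ranged from 8.87 to 11.29 in the inhibitory libraries while every excitatory value was 0, and Tbc1d7 was higher in the excitatory libraries, by 3.81 (SE 0.19, limma adjusted p = 1.43e-04). Rabep1, the gene of the RAB5 effector rabaptin-5, had 14.47 and 14.30 against 11.83 and 11.68, higher in the excitatory libraries by 2.63 (SE 0.13, adjusted p = 1.30e-04). Sytl2, of the RAB27 effectors, and Bicd1, which joins RAB6 to dynein, were at 0 in both inhibitory libraries. Genes named from the partner lists were mainly those with the smallest p, so they need not be typical of their lists. Effectors of RAB3 at the release site differed among themselves. Rims2 had 13.63 and 13.60 against 11.64 and 11.18, higher in the excitatory libraries by 2.20 (SE 0.19, limma adjusted p = 6.26e-04, scaled 1.66, 0.00294), and its deposited call was lost without excitatory replicate 1 (0.0576) or 2 (0.0572). Rims1 and Rph3a did not pass in the deposited values. Rims1 had 12.32 and 12.63 against 12.11 and 11.94 (adjusted p = 0.0658, scaled 0.712), and Rph3a 13.36 and 13.44 against 13.63 and 13.54 (0.178, scaled difference -0.72, 0.00657). Of 5 RAB-like genes 2, the ciliary transport genes Ift27 and Ift22, were higher in the excitatory libraries in the deposited values (0.0340 and 0.0151) and neither passed after scaling (0.467 and 0.287); both deposited calls were lost without either excitatory replicate or inhibitory replicate 2 (0.0623 to 0.129).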

How the data were processed

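The authors deposited 1 log2 value per gene and library, for 24421 genes. TopHat, edgeR and the build mm10 are named per the submitters' processing notes. Tool versions, the way reads were counted and the read length are not stated in the labels. The base and the added 1 were inferred from the lowest values, which are evenly spaced on the linear scale (steps of 1.30, 1.23, 0.719 and 0.873). The lowest step above 0 lies at 0.315, 0.248, 0.391 and 0.727, not at a whole step, so the added constant is not fixed by the values. Depth was estimated as the linear sum over that step. Values of at least 1 in 2 or more libraries were required, which left 13619 genes. These were fitted in R 4.3.3 by limma 3.58.1 with a mean-variance trend, adjusted together by the Benjamini-Hochberg method and called at 0.05 (prior 2.56, residual 2 degrees of freedom). Alternatives were scaling by median of ratios or by the upper quartile, a pseudocount of 16, other filters, no trend, each library left out and a replicate block. Scaling combined with a left-out library was chosen after seeing the data. With 1 library left out, the lone library is assumed to vary like the others. Positions, exon lengths and coding sequences came from GENCODE release M21 on GRCm38, the assembly of mm10; all 59 genes matched, Rab1 by its newer symbol Rab1a. No coordinates or sequences of Rab18 and Rab27b, and no proteins, are given. The members and lists were chosen with earlier results of these data known. Any member could be named, and from each partner list up to 4 genes past the threshold with the smallest p, plus Chm, Rims1 and Rph3a; Prelid1, Traf7, Pp2d1, Mrpl48, Mbp, Chml, Gdi2, Rims2 and markers at 0 were picked later, with values in view. A result for 1 gene of these lists is not reported here. In a simulation over 13619 genes, 50 genes of high mean value were shifted at each size, with normal noise of the fitted spread. The test found 8%, 50%, 100% and 100% of those shifted by 0.5, 1, 2 and 4 on the log2 scale and made 8 false calls. In the data 71.8% of genes passed, which makes the adjusted threshold looser than in the simulation. These rates therefore need not hold for the real comparison, and genes near the floor were not simulated with a shift.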

Additional observations from a re-analysis of the deposited data

How the results depend on the processing

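Without any 1 library, 6103 to 6551 genes passed in the deposited values, against 9777 with all 4. RAB genes past the threshold then numbered 18 to 24 (against 36), with 11 to 15 higher in the excitatory libraries (against 25) and 7 to 10 in the inhibitory ones (against 11), and RAB partner genes 55 to 61 (against 83). Scaling by median of ratios together with leaving out excitatory replicate 1, excitatory 2, inhibitory 1 and inhibitory 2 gave 5287, 5194, 5702 and 5621 genes, of them 19, 14, 18 and 17 RAB genes, with 6, 5, 9 and 8 higher in the excitatory libraries, and 48, 50, 56 and 52 partner genes. With all 4 libraries, 14 RAB genes were higher in the excitatory libraries after median-of-ratios and 15 after upper-quartile scaling. These 2 scalings turned the sign of Rab11b (-0.36 and -0.34), Rab1b (-0.10 and -0.082) and Rab2a (-0.14 and -0.12), and of Rab10 (-0.46 and -0.44), Rab5c (-0.21 and -0.19) and Rab6a (-0.099 and -0.080), which passed in neither the deposited nor the median-of-ratios values. In the same order of left-out libraries the scaled difference was -0.14, -0.061, -0.090 and -0.11 for Rab1b and -0.17, -0.11, -0.22 and -0.055 for Rab2a. In that order it was -0.39, -0.34, -0.26 and -0.46 for Rab11b. For Rab28 it was -0.014 without excitatory replicate 1; the cause was not tested. With a minimum of 3 in place of 5, 2 RAB genes (Rab32 and Rab35) were at 0 in both inhibitory libraries alone, and with a minimum of 8 there were 0 for either label. The replicate numbers are names only: deviations of same-numbered libraries correlated at -0.002 across tested genes. With a replicate block 34 RAB genes passed, Rab1b (limma adjusted p = 0.0848) and Rab2a (0.0555) being lost. No trend gave 30, and the pseudocount of 16 and dropping the filter on low values each gave 36. Of the 10 RAB genes highest per length, 8 were also among the 10 highest with the longest transcript as length.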
